A study of Homo sapiens with 2 samples.

Results

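The genes described here are IGF2BP1, IGF2BP2, IGF2BP3, LIN28A, LIN28B and HMGA2, 6 of the 19819 protein-coding genes placed on GRCh38. They were chosen by name as a family of genes active before birth and again in tumours, after the strong ING5 peak at IGF2BP3 had been seen. The peaks counted for them are those whose summit lay inside a gene or within 10 kb of it, which gave 7 of the 8608 peaks in the list. The number, height and length of the peaks at IGF2BP3 are therefore what drew attention to the group, and they are given as a description without a test. Chromatin of untreated HepG2 cells, a human liver cancer line, was precipitated with an ING5 antibody and sequenced (ChIP-seq) as 1 library, with 1 library of input DNA as control. ING5 is a plant homeodomain protein that binds methylated histone H3 and belongs to histone acetyltransferase complexes. The depth was 12416160 fragments for ING5 and 9915170 for input DNA. There was 1 library of each kind, so no value has a replicate error. Intervals are exact 95% intervals of counts or shares and cover counting error only.

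The IGF2BP proteins bind messenger RNAs, many of them carrying the m6A mark, and raise their stability or translation. LIN28A and LIN28B bind the precursors of let-7 microRNAs and block their maturation. HMGA2 is a chromatin protein that binds the minor groove of AT-rich DNA. All are high in embryonic or fetal tissues and are made in many cancers, liver cancer included, and all but IGF2BP2 are low in most adult tissues. Mature let-7 represses them through sites in their messenger RNAs, so that LIN28 and let-7 oppose each other and the other genes stand downstream.

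The let-7 family shares 1 seed, the bases 2 to 8 that pair with targets, and 3 of its members are shown with the seed in capitals because the group is defined by it.
let-7a-5p: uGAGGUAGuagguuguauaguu
let-7b-5p: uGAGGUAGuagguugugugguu
let-7i-5p: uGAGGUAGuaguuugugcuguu
The match to that seed followed by A, CTACCTCA, was searched on the sense strand of the 3′ untranslated region of each canonical transcript. It was present in all 6 genes and in 3.69% of 19709 protein-coding genes. IGF2BP1 held 3 such sites, LIN28B held 2 and the other 4 genes held 1 each. The first site of each gene is shown with the match in capitals, as the feature that links the genes to let-7. These genes were known as let-7 targets, so the matches describe them and are not a finding.
IGF2BP1: gtgtgcgaagtaaaCTACCTCAaggt
IGF2BP2: acacacagaagaagCTACCTCAggtg
IGF2BP3: gcatttttactcaaCTACCTCAggta
LIN28A: cacagcctattgaaCTACCTCAtttt
LIN28B: cccggttgcaaagtCTACCTCAtgca
HMGA2: ccaacgttcgatttCTACCTCAgcag
The sequences are those of the GENCODE 44 transcripts and of RefSeq mature microRNAs (GRCh38.p14). The shorter match CTACCTC, which is contained in the longer one, occurred 4 times in each of HMGA2, IGF2BP1 and LIN28B and once in each of the other 3 genes.

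ING5 peaks were found at 3 of the 6 genes. All 3 IGF2BP genes had peaks, and LIN28A, LIN28B and HMGA2 had none. IGF2BP2 had 3 peaks, and IGF2BP1 and IGF2BP3 had 2 each. Under the same rule 40.0% of all protein-coding genes had a peak, and 41.4% of those at least 50 kb long, a length that every gene of the group except LIN28A (18.9 kb) reaches. A count of 3 in 6 is close to those shares, so the group as a whole was not set apart by how many of its genes carried a peak. A promoter peak, with its summit within 1000 bp of an annotated transcription start site (TSS) of the gene, was found at the same 3 genes, against 30.9% of all protein-coding genes. The share of 3 in 6 has an interval of 11.8% to 88.2%, too wide to tell it from any of these backgrounds. The genes were chosen by name and are not replicates, so the interval is no test.

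**Figure D1:**
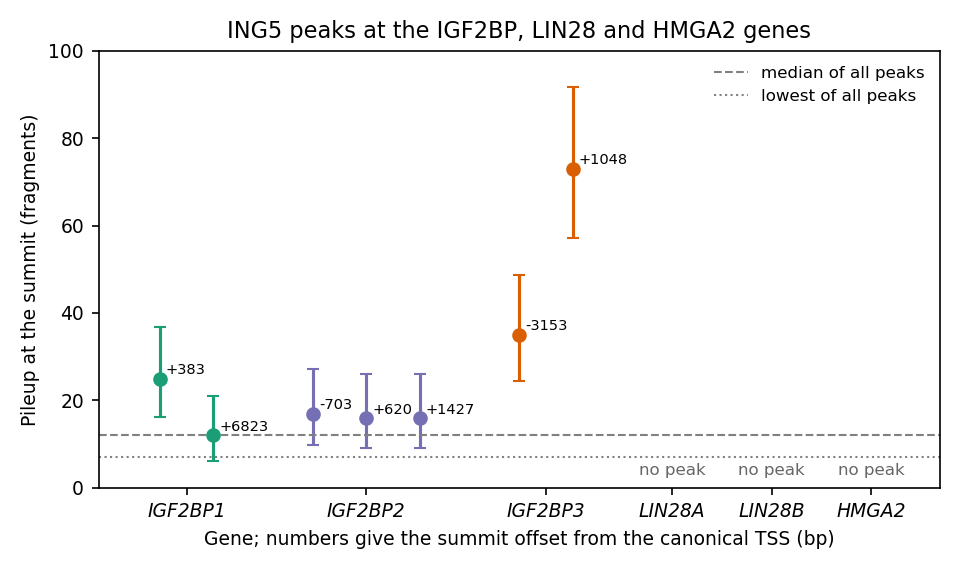
Pileup at the summit, in fragments, of each ING5 peak inside the 6 genes or within 10 kb of them. Points are single peaks of 1 library with exact Poisson 95% intervals, numbers beside them give the summit's offset from the canonical TSS in bp, and lines mark the median (12) and the lowest (7) pileup of all 8608 peaks. The tallest IGF2BP3 peak has 73 fragments, and the other peaks have 12 to 35.

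IGF2BP3 encodes the family member whose presence in adult tissue is used as a tumour marker. The gene lies on the minus strand of chromosome 7 from 23310209 to 23470491. Its main peak, chr7:23467457-23470125, had 73 fragments at the summit (57.2 to 91.8) and covered 2669 bp. It stood 39.9-fold over the local background, which was the genome-wide level of 0.853 fragments. By significance it ranked 6 of 8608 peaks, by pileup 10, by length 24 and by fold enrichment 5. Few peaks in the list were both this tall and this long: 0.116% of peaks had at least its pileup and 0.279% at least its length. Among the 6126 genes with a promoter peak, IGF2BP3 ranked 4 by the pileup of the tallest one.

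The main IGF2BP3 peak did not sit on the canonical start. Its summit lay 1048 bp downstream of that TSS, in intron 1, and the peak began 366 bp and ended 3034 bp downstream. It counts as a promoter peak because a minor transcript without a defined coding sequence starts 59 bp upstream of the summit. With the canonical TSS alone, IGF2BP3 would have no promoter peak, and the group would have 2 genes with one. The gene has 16 annotated TSS positions, more than any other gene of the group.

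The other IGF2BP3 peak, chr7:23473390-23474370, lay on the far side of the start, with its summit 3153 bp upstream of the canonical TSS. It had 35 fragments (24.4 to 48.7), covered 981 bp and reached 16.4-fold over a local background of 1.19 fragments. It ranked 97 by significance. The main peak was 2.09 times as tall. An unnamed long noncoding RNA gene on the opposite strand starts 1003 bp from its summit, so the upstream peak cannot be given to IGF2BP3 alone. A peak just outside the 10 kb limit, 10.6 kb beyond the 3′ end of IGF2BP3, had 14 fragments and 8.09-fold enrichment, and its summit lay 276 bp from a TSS of the neighbouring gene MALSU1. Inside the limit, the outermost IGF2BP3 peak was the upstream one.

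IGF2BP1, the paralogue best known for stabilising MYC messenger RNA, lies on the plus strand of chromosome 17 from 48997385 to 49056145. Its taller peak, chr17:48997441-48998919, had 25 fragments (16.2 to 36.9), covered 1479 bp and ranked 683. The summit fell in exon 1, 383 bp downstream of the canonical TSS and 5 bp from the start of a minor transcript. The local background there was 1.88 fragments, 2.20 times the genome-wide level, and enrichment was 9.03-fold. An unnamed antisense long noncoding RNA gene starts 276 bp from the summit, so this peak cannot be given to IGF2BP1 alone. The lower peak, chr17:49004029-49004302, had 12 fragments (6.20 to 21.0), the median of the whole list, and 7.01-fold enrichment in intron 2, 6823 bp downstream of the TSS.

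IGF2BP2, the paralogue that is also made in many adult tissues and is known from genetic studies of type 2 diabetes, lies on the minus strand of chromosome 3 from 185643130 to 185825042. Its 3 peaks were nearly equal in height, with 17, 16 and 16 fragments. The upstream one, chr3:185825575-185826132, had its summit 703 bp before the canonical TSS and reached 9.17-fold. The others, chr3:185824285-185824884 and chr3:185823264-185824100, had summits 620 and 1427 bp downstream, both in intron 1, with 8.92-fold and 8.37-fold enrichment. Their ranks ran from 1264 to 1832, and their local backgrounds from 0.905 to 1.03 fragments. Their counting intervals overlap almost completely (9.90 to 27.2 for the highest, 9.15 to 26.0 for the others), so no order among them can be read.

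Set side by side, IGF2BP3 had 2.92 times the pileup of IGF2BP1 (1.83 to 4.80) and 4.29 times that of IGF2BP2 (2.51 to 7.77) at their tallest peaks. The genes were compared because of this difference, so the ratios are a description. IGF2BP1 and IGF2BP2 differed by 1.47 times, with an interval of 0.763 to 2.90 that includes equal heights. By fold enrichment these last 2 genes stood at 9.03 and 9.17, in the reverse order, since the background at IGF2BP1 was higher. IGF2BP3 was also first by the total length of its peaks, with 3650 bp against 1995 bp at IGF2BP2 and 1753 bp at IGF2BP1.

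**Figure D2:**
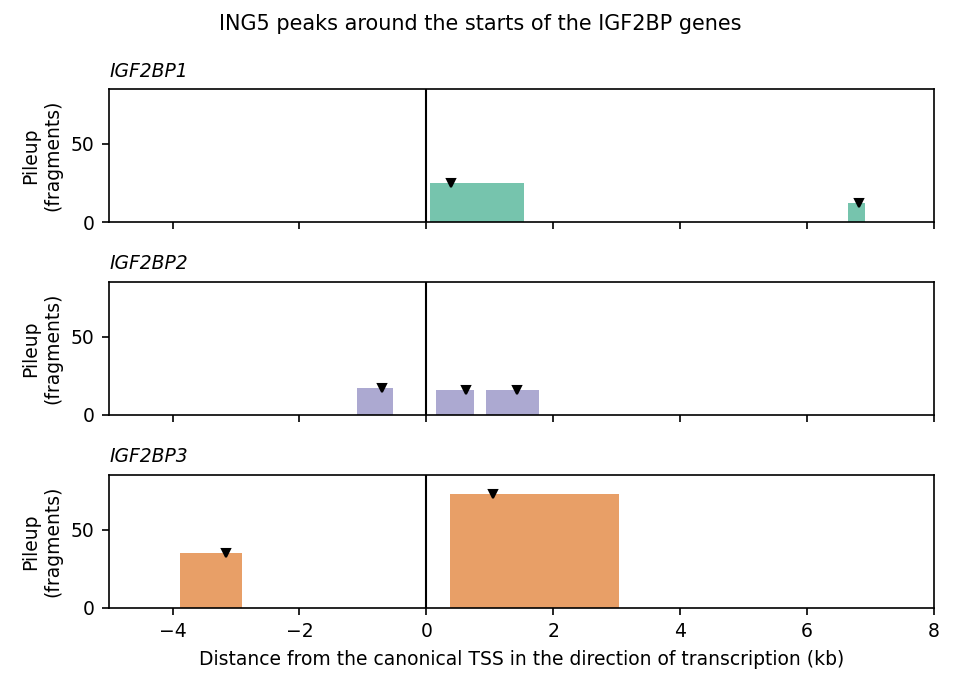
Position of each peak (bar, to scale) relative to the canonical TSS (vertical line), in kb along the direction of transcription, with the pileup in fragments as bar height and triangles at the summits. IGF2BP2 and IGF2BP3 have peaks on both sides of the TSS and none over it, while the IGF2BP1 peaks lie downstream.

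IGF2BP2 and IGF2BP3 had peaks on both sides of the canonical TSS and none over it. Offsets from the start were among the values looked at when the group was chosen, so this too is a description. The stretch without a peak was 691 bp at IGF2BP2, from 533 bp upstream to 158 bp downstream. At IGF2BP3 it was 3265 bp, from 2899 bp upstream to 366 bp downstream. Of the 6166 genes with a summit within 4 kb of the canonical TSS, 13.3% had summits on both sides and no peak over the TSS. IGF2BP1 had no upstream summit, and its peak began 56 bp downstream of the TSS. The 4 kb limit was set after the positions had been seen.

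The 250 bases before the start are printed for IGF2BP3 and IGF2BP2, since they fall in the stretch that the peaks left free, with each CpG in capitals. The same stretch of LIN28B shows a gene with no peak for comparison. All are written 5′ to 3′ along the gene, from RefSeq (GRCh38.p14), whose promoter table matched 3 of the 6 genes; IGF2BP1, LIN28A and HMGA2 had no entry.
IGF2BP3, minus strand, chr7:23470492-23470741: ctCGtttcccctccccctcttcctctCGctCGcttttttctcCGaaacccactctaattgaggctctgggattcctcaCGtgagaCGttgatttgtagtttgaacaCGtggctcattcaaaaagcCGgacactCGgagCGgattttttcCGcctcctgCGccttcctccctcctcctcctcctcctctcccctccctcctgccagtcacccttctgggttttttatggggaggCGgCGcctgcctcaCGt
IGF2BP2, minus strand, chr3:185825043-185825292: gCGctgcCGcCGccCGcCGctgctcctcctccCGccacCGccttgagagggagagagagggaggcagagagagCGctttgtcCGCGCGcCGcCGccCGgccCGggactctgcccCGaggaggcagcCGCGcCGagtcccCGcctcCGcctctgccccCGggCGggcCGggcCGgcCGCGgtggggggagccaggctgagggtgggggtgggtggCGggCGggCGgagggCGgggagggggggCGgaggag
LIN28B, plus strand, chr6:104956857-104957106: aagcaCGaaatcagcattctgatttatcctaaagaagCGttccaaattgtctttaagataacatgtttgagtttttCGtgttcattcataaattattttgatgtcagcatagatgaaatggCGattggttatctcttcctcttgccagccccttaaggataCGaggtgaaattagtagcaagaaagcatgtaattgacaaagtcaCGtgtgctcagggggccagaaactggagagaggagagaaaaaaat
No peak overlapped any of the 3 windows. IGF2BP3 had 15 CpG in its window, IGF2BP2 had 32 and LIN28B had 6, against a median of 11 (quartiles 3 and 23) over 35114 such windows. At least as many CpG as in IGF2BP3 were found in 42.9% of windows. The sequence under the peaks was not read, and a relation of CpG content to peak height was not tested. LIN28B has a second RefSeq start, upstream of the first, whose window from 104940715 to 104940964 held 33 CpG, and neither start had a peak. IGF2BP2 also has a second RefSeq start, inside the gene, whose window from 185821143 to 185821392 held 2 CpG, and 85.3% of windows held at least as many.

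Promoter motifs also differed between the windows, as a description of the letters only. The E-box CACGTG, which reads the same on both strands, occurred 2 times in the IGF2BP3 window, starting 174 and 146 bp before the TSS. It occurred once in the printed LIN28B window and was not found in that of IGF2BP2. At least 1 copy was present in 6.35% of all windows and at least 2 in 0.535%. The GC box GGGCGG, counted on both strands, occurred 7 times in the IGF2BP2 window, against at least 1 copy in 42.6% of all windows, and not in the printed windows of IGF2BP3 and LIN28B. The window at the upstream LIN28B start held 2 GC boxes and no E-box. Neither IGF2BP3 nor IGF2BP2 had TATAAA or CCAAT on either strand in its printed window. The CCAAT letters occurred once in that of LIN28B, and the window at the second IGF2BP2 start held 1 CCAAT and 1 TATAAA. Over all windows, TATAAA occurred in 10.7% and CCAAT in 32.0%. Each motif was searched by itself, so matches to different motifs can share bases.

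No ING5 peak was detected at the LIN28 genes or HMGA2. LIN28A, the form found in pluripotent cells, lies on chromosome 1 from 26410817 to 26429728, and the nearest summit was 176.3 kb away. LIN28B, the form most often active in liver cancer, lies on chromosome 6 from 104936616 to 105083332, and the nearest summit was 1015.5 kb away. HMGA2 lies on chromosome 12 from 65824460 to 65966291, with the nearest summit 203.4 kb away. The peaks nearest to these genes had 15, 10 and 8 fragments, and their summits lay 352, 82 and 176 bp from a TSS of CEP85, PRDM1 and TMBIM4. The lowest pileup in the whole list was 7 fragments, so weaker binding at these genes would not have been detectable at this depth. No flank up to 50 kb gave any of them a peak.

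**Figure D3:**
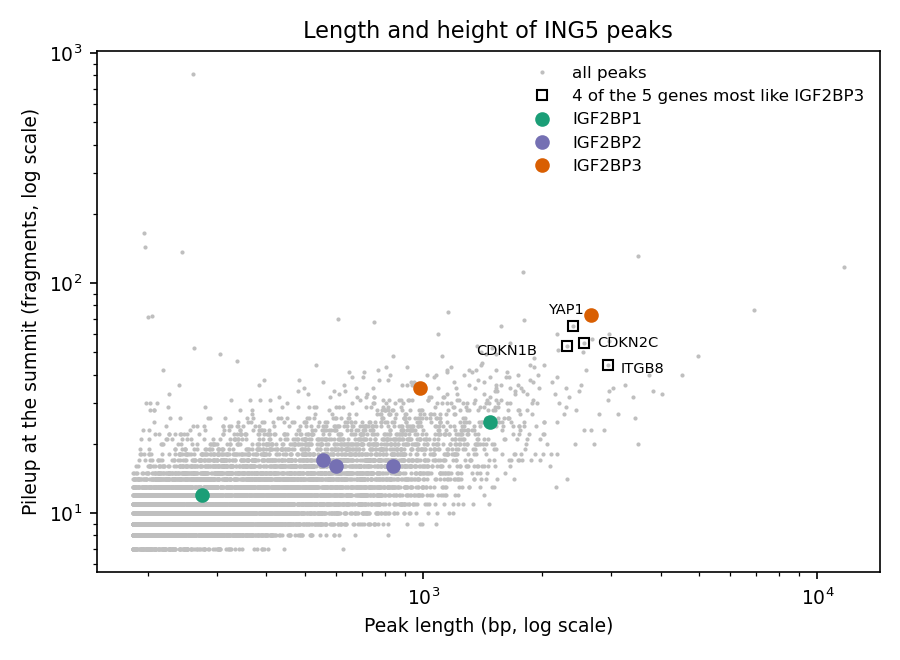
Length in bp and pileup in fragments (both on log scales) of all 8608 peaks (grey), of the 7 peaks at IGF2BP1, IGF2BP2 and IGF2BP3 (colours), and of the tallest promoter peaks of 4 of the 5 genes nearest to IGF2BP3 (squares). The main IGF2BP3 peak, with 2669 bp and 73 fragments, lies at the upper right, and the IGF2BP2 peaks lie among the bulk of the list.

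The promoter peaks most like that of IGF2BP3 were found by distance over log2 pileup and log2 length, within this 1 library. Of the 5 nearest genes, 4 are described, namely YAP1, CDKN2C, CDKN1B and ITGB8. YAP1, the effector of Hippo signalling, was nearest, at a distance of 0.225, with 65 fragments over 2404 bp. The peak at CDKN2C, an inhibitor of cyclin-dependent kinases, had 55 fragments over 2562 bp, and that at CDKN1B, another such inhibitor, had 53 over 2322 bp. ITGB8, an integrin subunit gene, had 44 fragments over 2946 bp, at a distance of 0.744. The local background was the genome-wide level at ITGB8 and was 4.77 fragments at YAP1, where enrichment was 11.4-fold.

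Among 12 other fetal genes known as let-7 targets, 5 had a promoter peak, or 41.7% (15.2% to 72.3%), and 8 had a peak in the gene or within 10 kb (34.9% to 90.1%). The shares over all protein-coding genes, 30.9% and 40.0%, lie inside these wide intervals. Listed genes are not replicates, so the intervals are no test. The highest was at HMGA1, the paralogue of HMGA2, with 24 fragments, 13.5-fold enrichment and rank 283. Its summit lay 1048 bp downstream of the canonical TSS, so it counts as a promoter peak only through another annotated TSS. The HMGA genes thus differed within their family, with 2 peaks at HMGA1 and none at HMGA2. PLAGL2 and PLAG1, zinc finger transcription factor genes, reached 8.09-fold and 6.47-fold, and PRTG, a cell surface protein gene of the embryo, reached 7.01-fold. ARID3B, a DNA-binding protein gene, had the lowest promoter peak, with 9 fragments and 5.40-fold. TRIM71, which has 4 of the 8-base let-7 matches, had no peak in its window, nor had MYCN, SALL4 or DUSP9. ARID3A, NR6A1 and IGDCC3 had peaks outside the promoter window only, with 10, 12 and 8 fragments. The pileup of HMGA1 was close to that of IGF2BP1 and below that of IGF2BP3, whose height drew attention to the group.

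**Figure D4:**
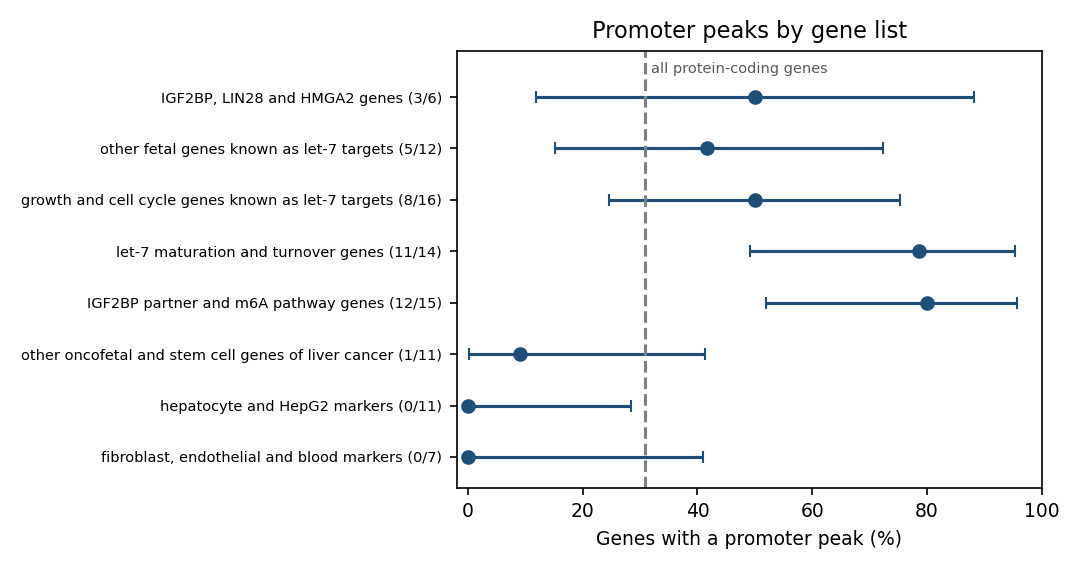
Share of genes in each list with a promoter peak, in percent, with exact binomial 95% intervals; counts are given in the labels and the dashed line is the share over all protein-coding genes, 30.9%. The lists of let-7 maturation genes (11 of 14) and of IGF2BP partner and m6A genes (12 of 15) lie above the line, and the IGF2BP, LIN28 and HMGA2 genes have an interval that crosses it. Listed genes are not replicates and were chosen with earlier results known, so the intervals are no test.

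Genes around this axis carried promoter peaks to different degrees, against a share of 30.9% over all protein-coding genes. Growth and cell cycle genes known as let-7 targets had one at 8 of 16, led by MYC with 18.3-fold and 33 fragments. The summit at MYC lay 2229 bp downstream of the canonical TSS, so it counts only through another annotated TSS. The cell cycle phosphatase gene CDC25A followed with 12.4-fold, the insulin receptor substrate gene IRS2 with 9.17-fold and E2F2, a cell cycle transcription factor gene, with 7.99-fold. Genes that make or turn over let-7 had a promoter peak at 11 of 14 (78.6%, 49.2% to 95.3%). These genes are not replicates and the list was chosen with earlier results known, so the interval is no test. XPO5, the nuclear exporter of microRNA precursors, was highest with 13.5-fold, followed by AGO2, the slicing Argonaute, and TRIM25, a cofactor of LIN28A, with 9.17-fold each. DIS3L2, the nuclease that degrades uridylated let-7 precursors, reached 7.55-fold. TUT4 and TUT7, which add those uridines, had 16 and 10 fragments. DICER1 and MSI1 had no peak in their windows.

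Partners of the IGF2BP proteins and genes of the m6A pathway had a promoter peak at 12 of 15 (80.0%, 51.9% to 95.7%). The share over all protein-coding genes, 30.9%, is the background for every list in this paragraph. Here too the genes are not replicates and the lists were chosen with earlier results known, so the intervals are no test. HNRNPU, DHX9, SYNCRIP and YBX1 encode proteins found with IGF2BP1 on MYC messenger RNA, and their peaks had 55, 16, 14 and 16 fragments. The summit at YBX1 lay 1070 bp downstream of the canonical TSS, so it counts only through another annotated TSS. HNRNPU was highest with 23.1-fold, followed by the m6A eraser gene ALKBH5 with 15.1-fold, the reader gene YTHDF2 with 11.3-fold and DHX9 with 9.09-fold. ELAVL1, METTL14 and FTO had no peak in their windows. Other oncofetal and stem cell genes of liver cancer had a promoter peak at 1 of 11 (9.09%, 0.230% to 41.3%), at the imprinted gene PEG10 with 6.91-fold. AFP, GPC3 and IGF2, classic oncofetal genes of this tissue, had none within 10 kb, and CD24 had no position here. None of 11 hepatocyte and HepG2 markers, ALB and HNF4A among them, had a promoter peak (upper bound 28.5%), and none of 7 fibroblast, endothelial and blood markers did (upper bound 41.0%). Peaks of a chromatin protein are not expression, so the labelled line cannot be checked from them.

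Of the 12 let-7 family hairpins, 4 had a summit within 10 kb. The share of 40.0% over protein-coding genes also counts summits along whole genes, so it is not a like background for these short hairpins. The nearest summit to MIRLET7I, on chromosome 12, lay 295 bp from the hairpin and had 15 fragments. The hairpins MIRLET7A3 and MIRLET7B, which are neighbours on chromosome 22 and share summits, had 6 and 5 summits within 10 kb, none above 13 fragments. The summit near MIRLET7G was at 9.49 kb with 11 fragments, and the other 8 hairpins had no summit within 10 kb. The pileup of 73 at IGF2BP3 was higher than any within 10 kb of a let-7 hairpin. That height drew attention to the group, so this is a description.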

How the data were processed

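ING5 ChIP-seq in HepG2 cells was analysed from 1 deposited peak list. Peaks were called by the authors with MACS2 2.1.1.20160309 against input DNA at p below 1e-05, per the file headers. Tools named per the submitters' processing notes are fastp 0.19.6, Bowtie2 and deepTools. The deposited pileup is a coverage signal in fragments at the summit. The deposited significance is −log10 p (a −log10 q is also deposited and was not used), and the fold enrichment, as deposited, is linear: a ratio over local background. Peak length in bp is as deposited by the authors. Each is the authors' own value of a peak and was used to describe or rank peaks within the list. The headers speak of scaling to the smaller library, but all pileups are whole and the lowest background, 0.853, is close to the uniform coverage of the unscaled ING5 library (0.842 against 0.672 for the input). Pileups were therefore read as fragments.

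The labels name GRCh37, but at GRCh38 positions 6527 of 8608 summits fell no more than 1000 bp from the TSS of a protein-coding gene, with positions taken from the original locations in GENCODE 44, and GRCh38 was used. Local background was recovered from pileup and fold with a pseudocount of 1. Ratios of pileups have exact conditional binomial intervals. The members and lists were chosen with earlier results of these data known. The genes named are the 6 members, up to 4 per list by promoter fold enrichment, those without a peak, and 4 of the 5 nearest to IGF2BP3 in log2 pileup and log2 length (the other is not reported here); other list genes were named after their values were seen. Gene assignment was tested on simulated data. Alternatives changed the flank, promoter window, TSS set and peaks kept. Python 3.11.15, pandas 2.3.3 and scipy 1.17.1 were used.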

Additional observations from a re-analysis of the deposited data

How the results depend on the processing

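Several choices left the picture of the IGF2BP genes as it was. With no flank and with 50 kb, 3 genes of the group had a peak, with 5 and 9 peaks in place of 7. The shares over all protein-coding genes were then 30.9% and 54.3%. Keeping fewer peaks lowered counts by construction. The 1000 most significant peaks left 3 peaks, at IGF2BP1 and IGF2BP3, while 6.82% of all protein-coding genes kept a peak. Peaks at the genome-wide background alone left 2 peaks and 1 gene with a promoter peak (IGF2BP3), against 19.9% of all protein-coding genes. The ratio of IGF2BP3 to its tallest paralogue became 6.08 in place of 2.92. That setting drops every IGF2BP2 peak and the taller IGF2BP1 peak. A window of 200 bp dropped IGF2BP2 from the promoter count and the canonical TSS alone dropped IGF2BP3, which left 2 genes each time, against 13.5% and 27.9% of all protein-coding genes. Of the other fetal let-7 targets, 5 had a promoter peak. This was 2 with a window of 200 bp, 3 with the more significant 4304 peaks and 1 (HMGA1) with the 1000 most significant. In these settings 13.5%, 19.2% and 4.77% of all protein-coding genes had one. The canonical TSS alone left 4 of these fetal targets, without HMGA1, against 27.9% of all protein-coding genes. The pileup of 73 at IGF2BP3 was the same in the 3 settings run for it, which only removed other peaks and so could not change it. A single library gives no replicate to leave out, and genes without a peak are limited by the lowest pileup of 7.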

Other observations

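Over all genes, those with the 8-base let-7 match in the 3′ untranslated region had a promoter peak at 260 of 727 (35.8%, 32.3% to 39.4%). Those without it had one at 5846 of 18982 (30.8%, 30.1% to 31.5%). The difference was not tested, and genes are not replicates.

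Among the 36 genes with at least 3 copies of the 7-base match, 0.183% of genes, were IGF2BP1, LIN28B and HMGA2, and also TRIM71 with 6 copies, NR6A1 with 5 and IGDCC3 with 4.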
